A study of Rattus norvegicus with 7 samples.

Results

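A stretch of rat chromosome 3 holds 6 of the most abundant gene models of the vomeronasal epithelium, and the 77 other gene models of that stretch were examined here. They were all models with a lowest start between 3500000 and 5700000 (RGSC3.4), without ENSRNOG00000042407, ENSRNOG00000040188, ENSRNOG00000027963, ENSRNOG00000026208, ENSRNOG00000030708 and ENSRNOG00000043494, out of 29630 models in all. The stretch was picked because those 6 models were known to be very abundant, and they were left out for the same reason, so that levels within the stretch are given as a description without a test. RNA came from 7 male LEW/Crl rats aged 8 weeks, flushed of blood with heparin, each rat giving 1 library of vomeronasal epithelium, and all rats formed a single group without treatment or altered alleles. The files give identifiers without gene names for these models, and 0 of the 77 could be matched to the reference tables, so that neither names, known functions nor sequences are given.

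The vomeronasal organ is a chemosensory tube in the nasal septum. Besides receptor neurons its lining holds supporting cells, and glands empty secreted proteins into its lumen. Genes for abundant secreted proteins often sit beside copies of themselves that arose by tandem duplication. Such copies tend to keep the exon number and coding length of their parent, while one copy may be transcribed strongly and the next hardly at all. In reads of near-identical copies, a read that maps to several of them cannot be assigned to one, and here each copy was credited with a fraction.

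The libraries held 64085829 to 74924005 counts, so that 1 CPM, a count scaled to the rat's total, stood for 64.1 to 74.9 counts. The tissue label could be checked only by the 5 intact V1R receptor genes that the authors' annotation names, which all had counts above the detection rule below, at 0.488 to 9.51 CPM. In a chi-square test of counts over models, each of the 21 possible rat pairs exceeded counting noise, with a chi-square per degree of freedom of 12.2 to 113.8, and every rat was counted once.

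The 6 abundant models served as landmarks. The first 3 lie close together: ENSRNOG00000042407 at 3858161 to 3861440 on the plus strand, ENSRNOG00000040188 at 3892990 to 3894995 on the minus strand and ENSRNOG00000027963 at 3934278 to 3937462 on the plus strand. The others lie apart: ENSRNOG00000026208 starts at 4933911 (plus), ENSRNOG00000030708 at 5309475 (plus) and ENSRNOG00000043494 at 5428658 (minus). They had 6 to 7 exons and 516 to 733 exon bases. Their mean levels ran from 12627 to 232173 RPKM, that is, CPM per kilobase of exon. Exons are counted here as separate, non-overlapping blocks.

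Most neighbours were detected. A model was called detected where 4 or more rats had at least 10 counts, and 65 of the 77 members were (84.4%). Over all models of the annotation the percentage was 56.3, and over the other 2154 models of chromosome 3 it was 52.4. The median level of the 77 members was 7.92 RPKM, and that of all models was 0.682 RPKM. Among detected models only, the medians were 8.39 RPKM for members and 6.29 RPKM for the whole annotation. The neighbours were a small part of the RNA. They took 0.515% ± 0.0361 of all counts (SD, n = 7), while the 6 landmarks took 38.2% ± 2.41 (SD, n = 7). Their share lay between 0.484% and 0.589% in the 7 rats, and the number of members with at least 10 counts lay between 64 and 67 in a single rat. Ranked by RPKM, the 77 members kept almost the same order from rat to rat (Spearman's rho 0.989 to 0.997 over the 21 pairs of rats, as a description). In RNA of whole tissue, a higher level from more cells of a type cannot be told apart from one of more RNA per cell.

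**Figure D1:**
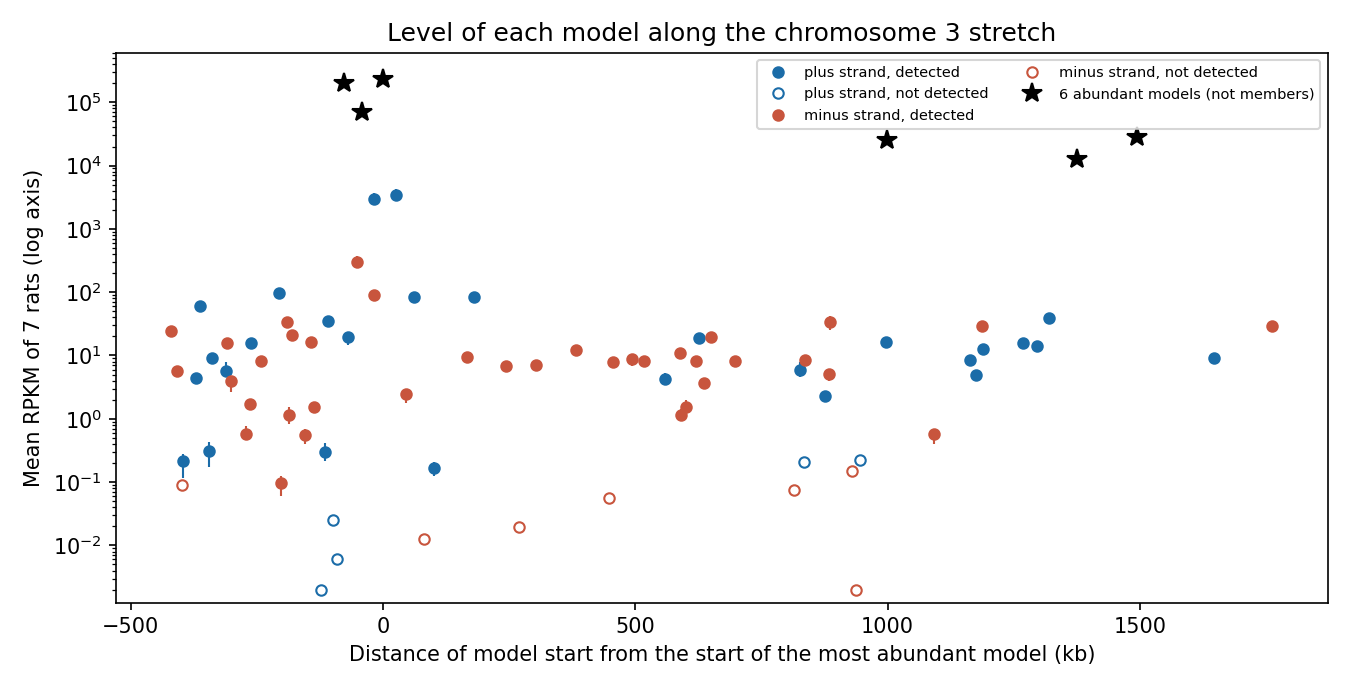
Mean RPKM of 7 rats (log axis) for each of the 77 members by the distance of its start from that of ENSRNOG00000027963, with bars from the lowest to the highest rat, colour for strand, open symbols for members that were not detected (a level of 0 is drawn at 0.002 RPKM) and stars for the 6 landmarks. The pair of members at 3003 and 3470 RPKM lies on either side of ENSRNOG00000027963, and most others lie between 1 and 100 RPKM along the whole stretch.

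Levels did not fall off evenly with distance from the landmarks. Before the first landmark 24 of 28 members were detected. All 4 members between the start of ENSRNOG00000042407 and that of ENSRNOG00000027963 were detected, with a median of 192.7 RPKM. From there to the start of ENSRNOG00000026208, 27 of 35 were detected, followed by 8 of 8 up to ENSRNOG00000043494 and 2 of 2 beyond it. The medians of these other segments, over all their members, were 4.25, 6.88, 13.4 and 19.2 RPKM in order. Of the 26 members within 100 kb of a landmark 19 were detected (73.1%), and of the 51 farther away 46 were (90.2%), so that undetected models were more frequent near the landmarks. The nearer members also included more high ones: 5 of 26 had at least 50 RPKM (19.2%), against 3 of 51 (5.88%). Over all models 56.3% were detected and 3.38% had at least 50 RPKM. The nearer members were shorter as well, with a median of 775.5 exon bases against 1649 for those farther away. The part of length in these differences was not tested. Spearman's rho between mean RPKM and distance was -0.09 over the 77 members and -0.26 over the 65 detected ones, which all share the same libraries.

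The highest member was ENSRNOG00000043355 (chromosome 3, 3960482 to 3964296, plus strand, 6 exons, 653 exon bases), 23.0 kb beyond ENSRNOG00000027963. It had 3046 RPKM in the lowest rat, 3436 in the median and 4270 in the highest, with a mean of 3470 ± 413 (SD, n = 7). It ranked 14th of all 29630 models by RPKM and made up 43.9% ± 2.21 of the members' counts (SD, n = 7). The lowest landmark was 3.64 times higher per length. The next member was ENSRNOG00000032607 (3917258 to 3918925, plus strand, 4 exons, 411 exon bases), which lies 15.4 kb before ENSRNOG00000027963. Its level ran from 2469 RPKM through a median of 2949 to 3668, with a mean of 3003 ± 371 (SD, n = 7). These members stood apart from all others and not from each other: their ranges overlapped, and ENSRNOG00000043355 was the higher in 6 of 7 rats.

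The third was ENSRNOG00000033758 (3883334 to 3886626, minus strand, 6 exons, 653 exon bases), 6.36 kb from ENSRNOG00000040188 and on the same strand. It had 263.8 RPKM in the lowest rat, 290.8 in the median and 367.9 in the highest, a mean of 294 ± 35.7 (SD, n = 7). This was 10.2-fold below ENSRNOG00000032607 and 3.03-fold above the fourth, without overlap of the rats in either step. The 2 highest members together held 67.8% ± 2.58 and the 10 with the most counts 82.8% ± 1.66 of the members' counts (SD, n = 7).

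Below these came 4 models whose ranges overlapped from each to the next. ENSRNOG00000016272 (3727811 to 3732116, plus strand, 5 exons) had 97.3 ± 8.37 RPKM. ENSRNOG00000042169 (3916619 to 3916978, minus strand, 2 exons) had 90.9 ± 5.75 RPKM, but with 159 exon bases this rested on only 14.5 ± 0.914 CPM. ENSRNOG00000032635 (4114204 to 4114977, plus strand, 1 exon) had 84.9 ± 3.90 RPKM (SD, n = 7 each). ENSRNOG00000027821 (3996496 to 3998850, plus strand, 7 exons) had a mean of 83.9 RPKM, with 72.9 in the lowest rat and 82.8 in the median. Rat 7 was the lowest for ENSRNOG00000042169 and ENSRNOG00000027821, and the highest for ENSRNOG00000016272 and ENSRNOG00000032635. ENSRNOG00000013895 (3571500 to 3577155, plus strand, 11 exons) followed at 61.1 ± 5.81 RPKM, below all 7 values of ENSRNOG00000027821. The next were ENSRNOG00000039906 (5253078 to 5270252, plus strand, 7 exons), ENSRNOG00000017184 (3825478 to 3829490, plus strand, 8 exons), ENSRNOG00000040714 (4819579 to 4819710, minus strand, 1 exon) and ENSRNOG00000016723 (3744948 to 3746346, minus strand, 3 exons). Their means were 39.4, 34.6, 33.9 and 33.5 RPKM, and each overlapped the next over the rats. ENSRNOG00000040714 varied most of these, from 25.4 to 42.5 RPKM.

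**Figure D2:**
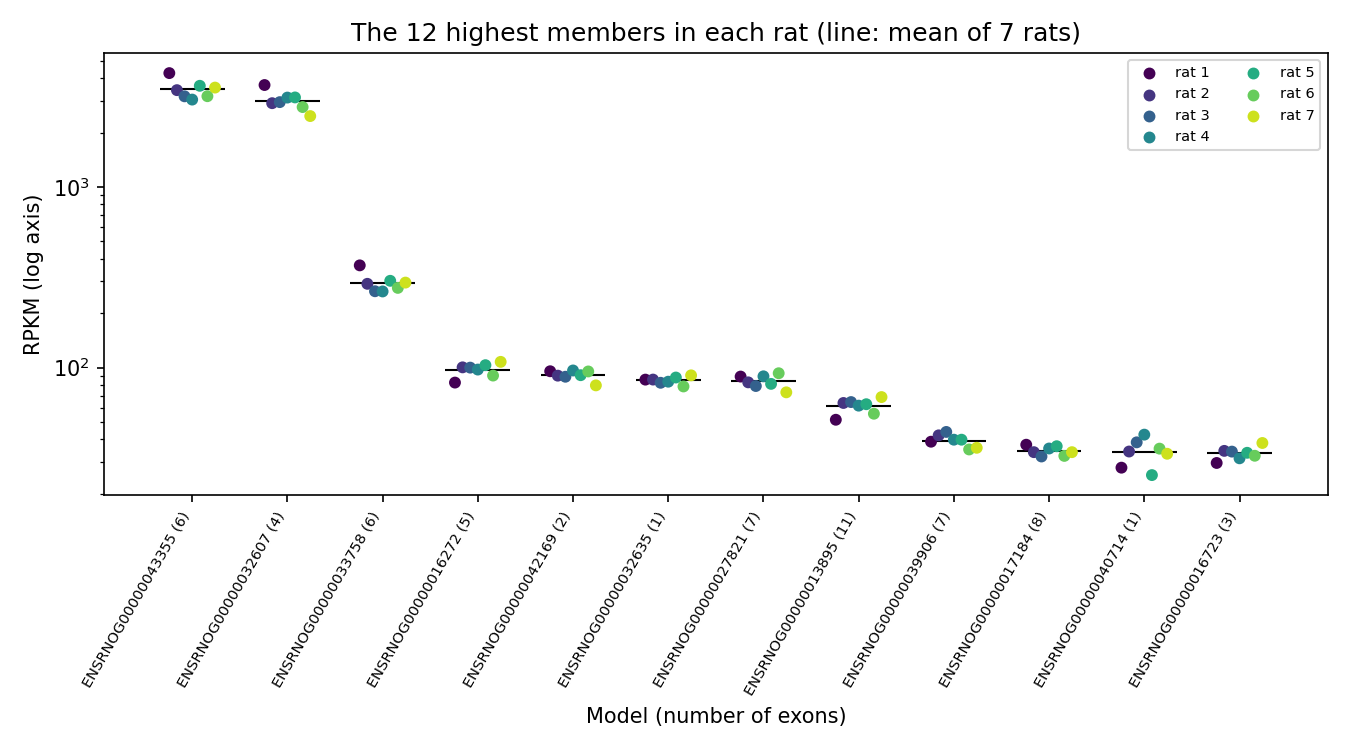
RPKM (log axis) of the 12 members with the highest mean, 1 point per rat and a line at the mean of 7 rats, with the number of exons in brackets. ENSRNOG00000043355 and ENSRNOG00000032607 lie at 2469 RPKM or above in every rat and ENSRNOG00000033758 between 263.8 and 367.9, clear of the 9 models below it.

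Models directly beside a landmark ranged from undetected to very high. ENSRNOG00000028074 (3843126 to 3846678, plus strand, 6 exons, 1136 exon bases), the last member before ENSRNOG00000042407 and 11.5 kb from it, was not detected: it had at most 2 counts in a rat and none in 4 rats. On the other side of the same landmark, 3.30 kb away and on the same strand, the single-exon model ENSRNOG00000042556 (3864740 to 3865499, 760 exon bases) had 14.5 RPKM in the lowest rat, 20.1 in the median and 22.9 in the highest, all from whole counts. ENSRNOG00000042407 itself had 199679 RPKM. Another single-exon model, ENSRNOG00000030476 (4930753 to 4931423, plus strand, 671 exon bases), lies 2.49 kb before ENSRNOG00000026208 on its strand. It had 15.8 to 17.7 RPKM in the 7 rats, with a median of 16.2 and fractional counts in every rat. After that landmark came ENSRNOG00000004880 (5026632 to 5028491, minus strand, 3 exons) at only 0.576 ± 0.111 RPKM, 89.6 kb away. No member starts between ENSRNOG00000030708 and ENSRNOG00000043494. They are bordered by ENSRNOG00000039906 and by ENSRNOG00000032782 (5579933 to 5596849, plus strand, 6 exons), which had 9.22 ± 1.03 RPKM (SD, n = 7).

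Members of every exon class were detected, most often those of many exons. With 8 or more exons, 29 of 30 members were detected (96.7%), and with 2 to 5 exons 11 of 12 (91.7%). With 6 or 7 exons it was 17 of 23 (73.9%), and with 1 exon 8 of 12 (66.7%). Over all models of these classes the percentages were 88.4, 51.6, 73.7 and 17.7 in the same order. The median levels of all members of a class were 7.98, 11.5, 5.76 and 6.92 RPKM, and those of all models 5.86, 0.262, 3.41 and 0.00333 RPKM. In the share detected, members and annotation lay closest for 6 or 7 exons, the exon number of the landmarks, whereas their median levels lay closest for 8 or more exons. These values carry no test, since the stretch was chosen by its levels.

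**Figure D3:**
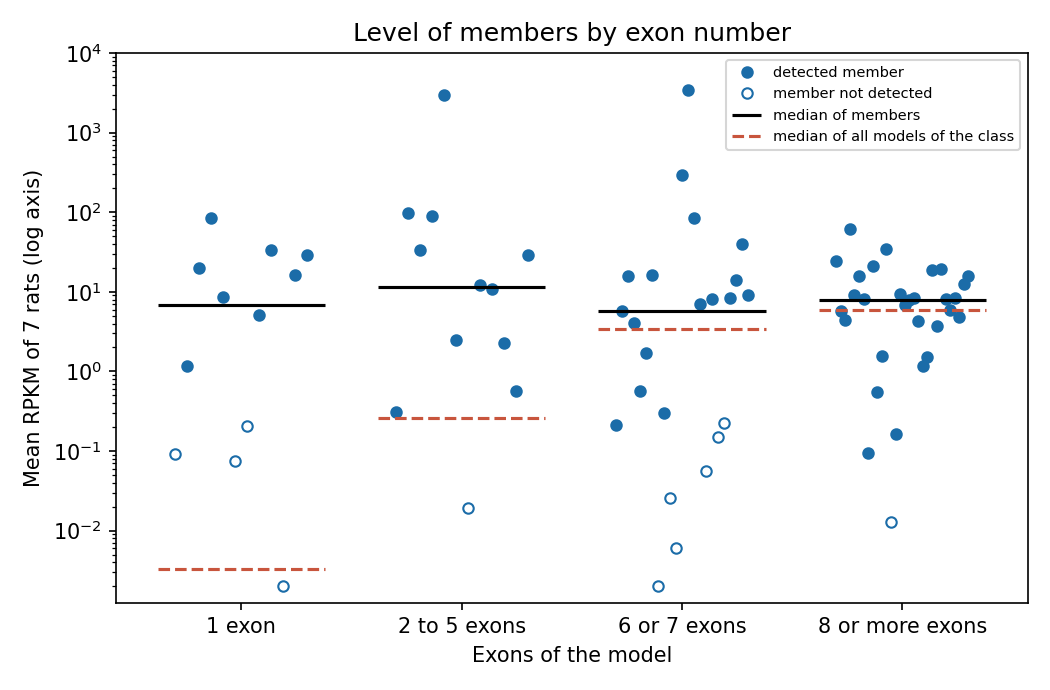
Mean RPKM of 7 rats (log axis) of the 77 members by exon number, filled where detected, with the median of the members (black line) and of all models of the same class (dashed line), a level of 0 being drawn at 0.002 RPKM. The members' medians lie between 5.76 and 11.5 RPKM in the 4 classes, while those of all models run from 0.00333 to 5.86 RPKM.

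The 8 detected single-exon members included ENSRNOG00000032635, which lies inside the span of the 21-exon member ENSRNOG00000017883 on the opposite strand (45.8 ± 4.17 CPM against 65.7 ± 3.02 CPM, SD, n = 7). The counting used strand. ENSRNOG00000028021 (5696597 to 5697052, minus strand), the last member, had 29.1 ± 1.21 RPKM. ENSRNOG00000027393 (4427180 to 4427554, minus strand, whole counts) had 8.66 ± 1.28 RPKM and ENSRNOG00000033863 (3748560 to 3751484, minus strand, 2925 exon bases) 1.16 ± 0.234 RPKM (SD, n = 7 each). Of the single-exon members, the 4 that were not detected had 73 to 324 exon bases. One of them, ENSRNOG00000040472 (4870775 to 4870942), stayed at 0 in all 7 rats. Over the group this leaves room for at most 0.00622 CPM (3 counts), a limit that covers counting error only.

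Longer members were detected more often than shorter ones, as in the annotation at large. Of the 39 members with at least the median of 1215 exon bases 38 were detected (97.4%), against 27 of the 38 shorter ones (71.1%). Over all models the percentages were 87 and 29.3. Per length the order turned: the shorter detected members had a median of 16.4 RPKM and the longer ones of 7.48 RPKM. Across the 65 detected members Spearman's rho of mean RPKM with exon length was -0.38 and with exon number -0.25, and over all 77 members -0.02 and -0.04. Among all detected models of the annotation the medians were 5.89 RPKM for the shorter and 6.41 RPKM for the longer ones. The values for members are a description. A short model must have a higher RPKM to reach 10 counts, and the part of this in the members' difference was not tested. The member with the most exons, ENSRNOG00000014268 (3595423 to 3615320, plus strand, 48 exons), had 9.17 ± 0.862 RPKM from 73.6 ± 6.91 CPM (SD, n = 7). ENSRNOG00000019122 (4584066 to 4613980, minus strand, 30 exons) had the fourth most counts, 144 ± 10.8 CPM, but 19.4 ± 1.46 RPKM (SD, n = 7).

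Both strands were about equally populated by detected models. On the plus strand 28 of 33 members were detected (84.8%) and on the minus strand 37 of 44 (84.1%). Over all models the percentages were 56.5 and 56. The medians over all members of the plus and minus strand were 9.17 and 6.96 RPKM. High levels among members were more often on the plus strand. There 6 of 33 members (18.2%) had at least 50 RPKM, against 2 of 44 (4.55%) on the minus strand. Over all models the percentages were 3.32 and 3.43. Of the 34 members on the strand of their nearest landmark 29 were detected, and of the 43 on the other strand 36, with medians of 10.9 and 6.88 RPKM over all members.

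The build of the landmarks was shared by 13 members. It was taken, after seeing the data, as 6 or 7 exons, 500 to 850 exon bases and a span of at most 6 kb. They covered the whole range of levels. ENSRNOG00000043355, ENSRNOG00000033758 and ENSRNOG00000027821, all within 59.0 kb of a landmark, were the highest. ENSRNOG00000028254 (3791545 to 3793503, minus strand) had 16.2 ± 0.934 RPKM and ENSRNOG00000015294 (3625548 to 3626982, minus strand) 15.7 ± 1.49 RPKM (SD, n = 7 each). The others detected lay between 0.304 and 5.76 RPKM: ENSRNOG00000015184, ENSRNOG00000015550, ENSRNOG00000028701, ENSRNOG00000028730 and ENSRNOG00000017161. The 3 that were not detected were ENSRNOG00000028095 (3836357 to 3841919, plus strand), ENSRNOG00000033020 (4862645 to 4867267, minus strand) and ENSRNOG00000033761 (4879048 to 4883485, plus strand). They lie 16.2, 66.6 and 50.4 kb from the nearest landmark and had 0.0254, 0.150 and 0.224 RPKM. Of 244 models of this build in the whole annotation 121 were detected (49.6%), and their median was 0.195 RPKM, against 10 of 13 (76.9%) and 4.02 RPKM for the members.

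The 12 undetected members were not all empty. Counts were 0 in every rat for 2 of them, ENSRNOG00000040472 and ENSRNOG00000040199 (3812085 to 3815859, plus strand, 7 exons, 291 exon bases). The other 10 had some counts. ENSRNOG00000033761 came closest to detection, with 5.5 to 19.5 counts and at least 10 in 3 rats. The longest of the 12 was ENSRNOG00000018427 (4382053 to 4389108, minus strand, 7 exons, 1297 exon bases), with 1 to 12 counts, followed by ENSRNOG00000028074 and by ENSRNOG00000033983 (4015651 to 4019668, minus strand, 8 exons) with at most 2 counts. Just inside the detection rule was ENSRNOG00000017161 (3820216 to 3823200, plus strand, 7 exons), with 9 to 20 counts and at least 10 in 6 rats.

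At the edges of the window levels lay above the median of all detected models, 6.29 RPKM. The first member, ENSRNOG00000012640 (3514968 to 3519220, minus strand, 13 exons), had 24.4 RPKM in the median rat and 29.7 in the highest. The model before it, ENSRNOG00000012559, starts at 3493439 and had 45.4 RPKM, and the one after the last member, ENSRNOG00000039888, starts at 5730551 and had 15.1 RPKM.

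Shared reads touched most of the members. Of the 65 detected members 44 held fractional counts in at least 1 rat (67.7%, against 30.8% of all detected models and 30.5% of those elsewhere on chromosome 3), among them the 9 highest by RPKM, and 21 had whole counts in every rat. A model was fractional if its count in 1 rat was not whole, so that models with many counts are more readily so. ENSRNOG00000013102, for example, was whole in every rat but rat 4, with 499.5 counts. The share of fractional models at like counts was not examined. All 8 members of at least 50 RPKM were fractional. For these a fraction of reads mapped elsewhere too, and the files do not say where or how many.

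A ratio that hardly varied linked ENSRNOG00000033758 to ENSRNOG00000043355. These models lie on opposite strands, have 6 exons and 653 exon bases each, and both held fractional counts. ENSRNOG00000033758 stood at 172.3 CPM in the lowest rat, 189.9 in the median and 240.3 in the highest, and ENSRNOG00000043355 at 1989, 2244 and 2788 CPM. Rat 1 was the highest and rat 4 the lowest for both. The first was 8.49% ± 0.166 of the second (SD, n = 7), with a range from 8.32% to 8.68%. The coefficient of variation (CV) of this ratio was 1.95%, while the levels themselves had CVs of 12.1% and 11.9%. Counting error alone, computed as for independent whole reads, would give 0.910%, which need not hold for fractional counts. Among the 2080 pairs of detected members 1.95% was the second smallest CV, after that of ENSRNOG00000018574 and ENSRNOG00000026775 (1.62%), against a median of 15.2%. That 1.62% lay below the 2.90% computed for counting error there in the same way, so that the order among the smallest CVs is not sure. The part of shared reads in the steady ratio of ENSRNOG00000033758 to ENSRNOG00000043355 was not tested. The pair was singled out after its values were seen.

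**Figure D4:**
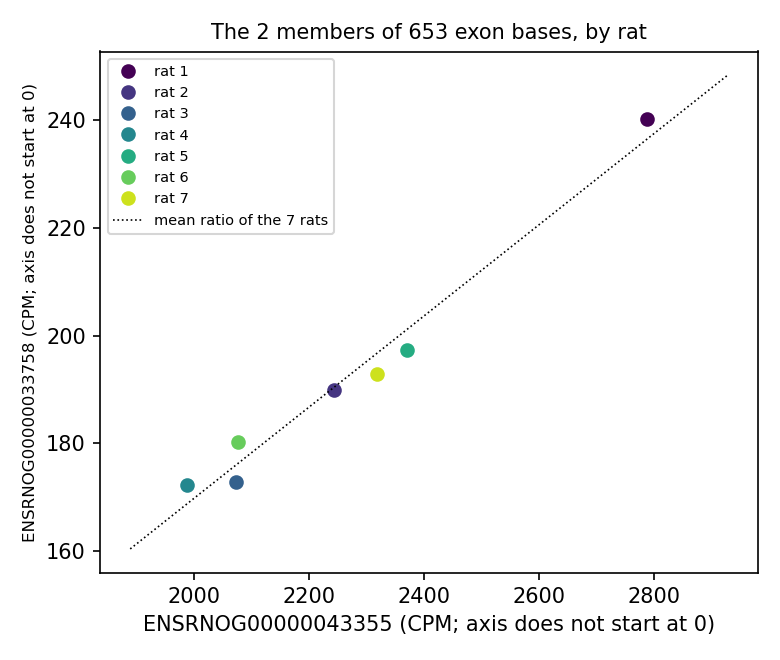
CPM of ENSRNOG00000033758 against that of ENSRNOG00000043355, 1 point per rat, with a dotted line at the mean ratio and axes that do not start at 0. The 7 points lie close to the line, with ratios of 8.32% to 8.68%, and rat 1 lies highest on both axes.

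Whether neighbours went up and down with the landmarks from rat to rat is a measure that the choice of the stretch did not use. The summed level of the 6 landmarks, scaled to the other models, varied 1.41-fold over the rats and was lowest in rat 7. For each of 16664 detected models a slope of its log2 level on the log2 summed level of the landmarks was fitted, so that a slope of 1 means a change in proportion. With edgeR's quasi-likelihood test and Benjamini-Hochberg adjustment, 0 of the 65 detected members and 0 of the 16664 models passed the threshold of 0.05 (0% of all), and the smallest adjusted p of a member was 0.221. This does not show that the members did not vary with the landmarks. At an unadjusted p below 0.05 there were 10 of the 65 members, against 10.8% of all models. At that p 5 of the 65 members had a positive and 5 of the 65 a negative slope, and of all models 6.97% and 3.8% did. DESeq2's Wald test with the same adjustment called 3 of the 65 members, all with a positive slope, and 1.25% of all models (1.13% with a positive slope). The members' median slope was -0.02 and that of all models 0.01.

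The 3 members called by DESeq2 lay within 59.0 kb of ENSRNOG00000027963. ENSRNOG00000042169 had a slope of 0.98 (SE 0.15), with an adjusted p of 0.221 by edgeR and of 0.000375 by DESeq2. ENSRNOG00000027821 had a slope of 1.07 (SE 0.18), with adjusted p of 0.232 by edgeR and 5.98e-05 by DESeq2. ENSRNOG00000032607 had a slope of 1.32 (SE 0.27), with adjusted p of 0.282 by edgeR and 0.000265 by DESeq2. Without rat 7 the slopes were 1.04, 1.40 and 1.72, with unadjusted p of 0.0272, 0.0139 and 0.0321 by edgeR. The adjusted p by edgeR was then 0.585 for each of the 3. DESeq2 was not run without rat 7. All 3 held fractional counts, and the part of shared reads in their slopes was not tested. For each detected member the landmark to which its ratio varied least was also picked. The CV of this ratio was smallest for ENSRNOG00000027821 with ENSRNOG00000030708 (2.38%) and ENSRNOG00000042169 with ENSRNOG00000027963 (2.60%), and the median of these lowest CVs over the 65 members was 14.6%.

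ENSRNOG00000017184, whose counts were whole, had a slope of 0.64 (SE 0.20) with an adjusted p of 0.400 by edgeR, and a slope of 1.36 without rat 7. ENSRNOG00000030476, beside ENSRNOG00000026208 and with fractional counts, had 0.47 (SE 0.19, adjusted p = 0.461 by edgeR), and 1.12 without rat 7. The highest member, ENSRNOG00000043355, had a slope of 0.59 (SE 0.39, adjusted p = 0.560 by edgeR) that moved to 1.83 without rat 7, and ENSRNOG00000033758 went from 0.70 to 2.09. ENSRNOG00000042556, the nearest model with whole counts, had a negative slope of -0.46 (SE 0.32, adjusted p = 0.572 by edgeR), which was -1.59 without rat 7. Leaving out rat 7 thus moved these 5 slopes away from 0 by more than 1.5 times. Leaving out rat 1 moved 4 of them towards 0 by more than 1.5 times: ENSRNOG00000043355 to 0.13, ENSRNOG00000033758 to 0.24, ENSRNOG00000030476 to 0.28 and ENSRNOG00000042556 to -0.11.

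By distance, the 19 detected members within 100 kb of a landmark had a median slope of 0.47, with 13 above 0, and the 46 farther away had a median of -0.08, with 16 above 0. The 5 members with a positive slope at an unadjusted p below 0.05 lay 2.49 to 59.0 kb from a landmark, and the 5 with a negative one 99.2 to 381.1 kb. This difference was seen in the data and was not tested.

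**Figure D5:**
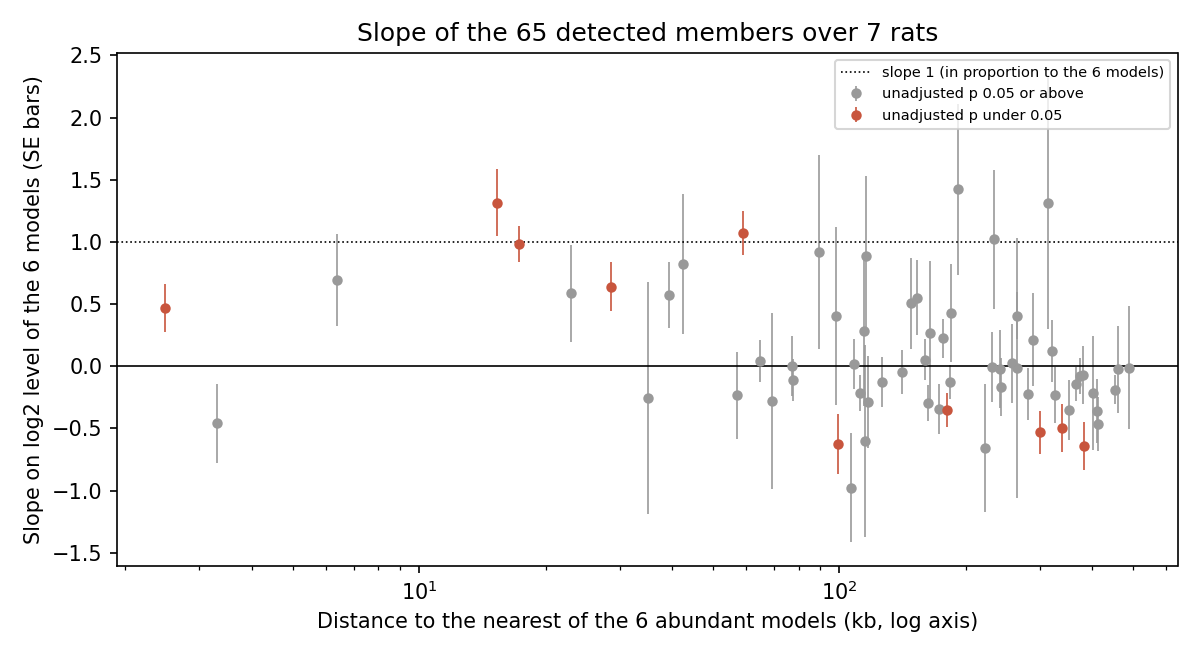
Slope on the log2 summed level of the 6 landmarks, with SE bars, for the 65 detected members by distance to the nearest landmark (kb, log axis), coloured where the unadjusted p was below 0.05, with a dotted line at a slope of 1. Coloured points above 0 lie within 59.0 kb of a landmark and those below 0 at 99.2 kb or more, and none passed after adjustment over all models with edgeR.

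The members varied between rats about as much as other genes. Their median biological coefficient of variation, the square root of edgeR's tagwise dispersion, was 10.4%, and that of all detected models 10.5%. It ran from 6.71% for ENSRNOG00000029875 (5120300 to 5121217, minus strand, 2 exons) to 27.5% for ENSRNOG00000014156 (3590168 to 3593044, plus strand, 3 exons), a model of only 0.634 CPM. For ENSRNOG00000043355, ENSRNOG00000032607 and ENSRNOG00000033758 it lay between 12.7% and 14.8%.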

How the data were processed

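RNA was polyA-selected and sequenced as stranded single-end reads of 100 nucleotides, per the labels' protocols. The submitters' processing notes name STAR 2.7.1a and featureCounts 1.6.5. Per the file headers, featureCounts 1.6.3 made the deposited estimated counts per gene model (the authors' extension of Ensembl release 67, RGSC3.4; strand setting 2, minimum overlap 1, minimum mapping quality 0), with reads of several places counted as fractions. Model lengths are the exon bases in the deposited files. Each rat's total served to compute CPM and RPKM here.

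Models were fitted on counts rounded to whole numbers with edgeR 4.0.16 (R 4.3.3), with library sizes and TMM factors from all models but the 6 landmarks. DESeq2 1.42.0 was an alternative. The fit was tested on simulated data. Python 3.11.15, numpy 2.4.6, scipy 1.17.1, pandas 2.3.3 and matplotlib 3.10.9 did the rest. The p-values measure the spread between 7 rats.

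Members, lists and tests were chosen with earlier results of these data known. Members named were the 12 highest by RPKM, those beside a landmark, the first and last, the 5 longest undetected, single-exon ones of at least 1 CPM and the 5 highest fractional ones; others were chosen after their values were seen.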

Additional observations from a re-analysis of the deposited data

Results flagged for a closer look

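Dixon's test at its 95% critical value was applied to 29 values over the 7 rats, and 1 exceeded it. ENSRNOG00000033758 had 240.3 CPM in rat 1, where the next rat had 197.3 and the lowest 172.3 CPM, a gap of 0.631 of the range. ENSRNOG00000043355, at 2788 CPM, was also highest in rat 1. Chance flags about 1 in 20 such values.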

How the results depend on the processing

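Of 265 alternative values 249 kept their direction and side of the threshold or moved little, 9 moved, 3 gained a call and 4 reversed. Of the 249, 203 were slopes, which counted as kept by sign and side of the threshold, whatever their change in size. No edgeR slope passed in the main fit, so that this tally says little about how steady the slopes were. With whole counts only, 21 members were detected against 65, since only 27 members enter. The share detected was 77.8% of these 27 and 84.4% of all 77. Of all models with whole counts, 11532 of 22114 were detected. The members' share of counts was 0.836% without the 6 landmarks in the total and 0.289% without the highest member, and the median level 12.8 RPKM without the landmarks in the total, which follows from the smaller sums. The difference in share detected between single-exon and other members, -21.0 percentage points, was -25.6 with a minimum of 3 counts and -8.72 with a minimum of 1 RPKM. That between plus and minus strand, 0.758, reversed to -0.758 and -2.27 there. That between members nearer and farther than the median distance, -5.60, was -17.1 with a split at 100 kb. The cause of these was not tested. DESeq2's Wald test called 3 members where edgeR called 0 under every other alternative. The slopes of ENSRNOG00000004880 (0.92) and ENSRNOG00000039906 (0.57) ran from -1.76 to 1.62 and from -0.44 to 0.66 with each rat left out, below 0 without rat 7. Within the landmarks' exact ranges of exons, length and span only 3 members remained, all 3 detected. The share detected over all models of those ranges was not computed. The exact ranges, lengths over 100 bases, members without overlap and levels without landmarks or a rat were added after seeing the data. No paired analysis was possible because there was only 1 group.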

Other observations

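A model on the opposite strand was overlapped by 6 members, and all 6 were detected. ENSRNOG00000028701 and ENSRNOG00000028674, whose spans overlap at one end, had 1.42 ± 0.101 and 39.1 ± 3.80 CPM, and ENSRNOG00000019388 and ENSRNOG00000019466 had 10.5 ± 1.94 and 13.2 ± 1.12 CPM (SD, n = 7 each). On the same strand, ENSRNOG00000035591, a model of 73 bases, shorter than a read of 100, lies inside the span of ENSRNOG00000019388 and had at most 4 counts in a rat. ENSRNOG00000040141 overlaps ENSRNOG00000018231 on the same strand and had at most 1 count, against 22.8 ± 2.76 CPM for the latter (SD, n = 7).

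Of 6 members under 200 bases 3 were detected (50%), against 7.12% of all 4803 models that short. They were ENSRNOG00000042169, ENSRNOG00000035316 at 0.679 ± 0.104 CPM and ENSRNOG00000040714 at 4.48 ± 0.776 CPM (SD, n = 7). The latter pair lies 1 after the other on the minus strand, with starts at 4818305 and 4819579 and 131 and 132 bases, and both had whole counts in every rat.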
